A study of Canis lupus familiaris with 39 samples.

Results

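Spleen and liver were compared directly, probeset by probeset, in pathologically normal dog tissue measured on Affymetrix Canine Version 2.0 arrays. The comparison covers 8 of the 39 arrays of a collection of 10 organs: 4 labelled Spleen_normal and 4 labelled Liver_normal. All 42860 probesets entered it, and a subset of 86 probesets was listed because its mean lay 4-fold or more above the mean of the 8 other organs in spleen and in liver alike. The other 31 arrays were of brain, heart, jejunum, kidney, lung, peripheral lymph node, pancreas and skeletal muscle.

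Both organs pass blood slowly through wide, leaky vessels called sinusoids, which are lined by scavenging endothelial cells and patrolled by resident macrophages. In the spleen these macrophages lie in the red pulp and break down old red cells, returning the iron of haem to plasma, while the white pulp around the arteries holds B and T lymphocytes, and a muscular capsule with trabeculae lets the canine spleen contract. In the liver the sinusoidal macrophages are the Kupffer cells, and most of the tissue consists of hepatocytes, which make plasma proteins and bile, run the urea cycle and gluconeogenesis, oxidise drugs and secrete hepcidin, the hormone that closes the iron exporter ferroportin.

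The organs came from 4 dogs, 2 males and 2 females, 2 of them beagles and 2 of mixed breed, between 3 months and 6 years old. The labels name no treatment, genotype or strain for any array, and each array held total RNA of a whole piece of tissue. A difference between arrays can therefore come from fewer cells of a type or from less RNA per cell, and these cannot be told apart. Both organs were taken from the same dogs, but no label says that spleen 1 and liver 1 share a dog, so the arrays were fitted as separate samples. The fit pooled the spread within each of the 10 organs over all 39 arrays, so standard errors and p-values rest on that spread and not on the 8 spleen and liver arrays alone. For FGB, a fibrinogen chain, the 4 spleens had an SD of 0.065 and the 4 livers of 0.274, whereas the SE of the difference was 0.94. Values are log2 intensities normalised to the whole array, with array medians of 3.95 to 4.04 in these 8, so a mean near 4 is that of a typical and mostly dim probeset. Differences are spleen minus liver on the log2 scale and are given ± the standard error (SE) of limma's fit, and per-array values follow the order of arrays 1 to 4. A probeset was called at a false discovery rate of 0.001 over all 42860.

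The defining transcripts of each organ were where the labels put them. Albumin, ALB, the main plasma protein of hepatocytes, measured 6.75, 6.73, 4.07 and 7.32 in spleen, against 13.75, 13.59, 13.71 and 13.49 in liver. ALB was bright in every liver array and far dimmer in every spleen array, with spleen 3 at the level of a typical probeset. COCH, cochlin, a secreted matrix protein known from the inner ear and from follicular dendritic cells in mice, measured 11.93, 12.09, 10.66 and 11.77 in spleen, against 3.37, 3.38, 3.49 and 3.60 in liver. VTN, the plasma adhesion protein vitronectin made by hepatocytes, measured 4.38, 4.50, 4.26 and 4.31 in spleen, against 12.53, 12.25, 12.30 and 12.57 in liver. COCH and VTN thus separated the organs in opposite directions with no overlap, whereas CCL14, a chemokine of sinusoidal vessels, was high in both and is described with the shared probesets. Each spleen array correlated best with another spleen array (Pearson's r across probesets 0.953 to 0.978) and each liver array with another liver array (0.966 to 0.980). Spleen 3 stood apart within its group: its r with spleen 1 was 0.935, the lowest between arrays of 1 organ, and it took the lowest weight (0.29) when limma weighted the arrays by their fit.

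In all, 5376 probesets (12.5%) were called, 2760 of them higher in spleen (6.44%) and 2616 lower in spleen (6.1%). Differences of at least 4-fold were found in 1142 probesets higher in spleen (2.66%) and 1589 lower in spleen (3.71%). Counted by genes, with the brightest probeset standing for each of 15115 symbols, 1236 were higher in spleen (8.18%) and 1086 lower in spleen (7.18%), and the median difference over all genes was 0.02. The called probesets divided into 51.3% higher and 48.7% lower under the deposited normalisation. This division depended on the scaling: with each array shifted to an equal median of 13 housekeeping genes, 82.3% of 7612 calls were higher in spleen, and with a shift by the median mean-centred value of the 11 brighter of these genes, an alternative added after seeing the data, 17.6% of 7197 were. The shift by levels moved the median difference of all probesets to 0.78 and the shift by mean-centred values moved it to -0.51, so the directions below are relative to the whole array. All spleen arrays lay above all liver arrays in 17% of genes and below all of them in 12.2%. Among the probesets at least 4-fold higher in spleen, spleen had the highest mean of the 10 organs in 33.0%, lymph node in 25%, lung in 13.6% and brain in 12.1%. Among those at least 4-fold lower in spleen, liver had the highest mean in 68.5% and kidney in 12%. A gene that separated spleen from liver was thus often shared by spleen with another organ, and mostly peaked in liver when it was on the liver side.

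Among called genes whose spleen and liver arrays did not overlap, the 15 with the largest differences on the spleen side had differences of 5.36 to 8.15. After COCH (8.15 ± 0.25, 284-fold, limma adjusted p = 3.66e-23) came STMN2, a regulator of microtubules known from neurons, with 10.82, 11.47, 10.63 and 11.16 in spleen, against 3.42, 3.29, 3.65 and 3.54 in liver. Its arrays were tightly grouped in both organs, and only brain had a higher mean. ALAS2, the haem synthesis enzyme of red cell precursors, followed with 10.97, 11.43, 11.98 and 12.39 in spleen, against 3.90, 4.37, 3.79 and 6.64 in liver. All 4 spleens were bright, and liver 4 stood above the other 3 livers. LOC476825, a protein-coding locus with no gene name in the annotation used, measured 12.41, 12.03, 12.42 and 12.51 in spleen, against 3.69, 6.81, 4.06 and 8.76 in liver, and was likewise brightest among the livers in liver 4 and then liver 2. SPIC, the transcription factor that red pulp macrophages need to form in mice, measured 11.09, 10.20, 9.30 and 10.99 in spleen, against 4.39, 4.24, 3.75 and 3.72 in liver, and no spleen array came near a liver array (difference 6.37 ± 0.30, 82.7-fold).

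**Figure D1:**
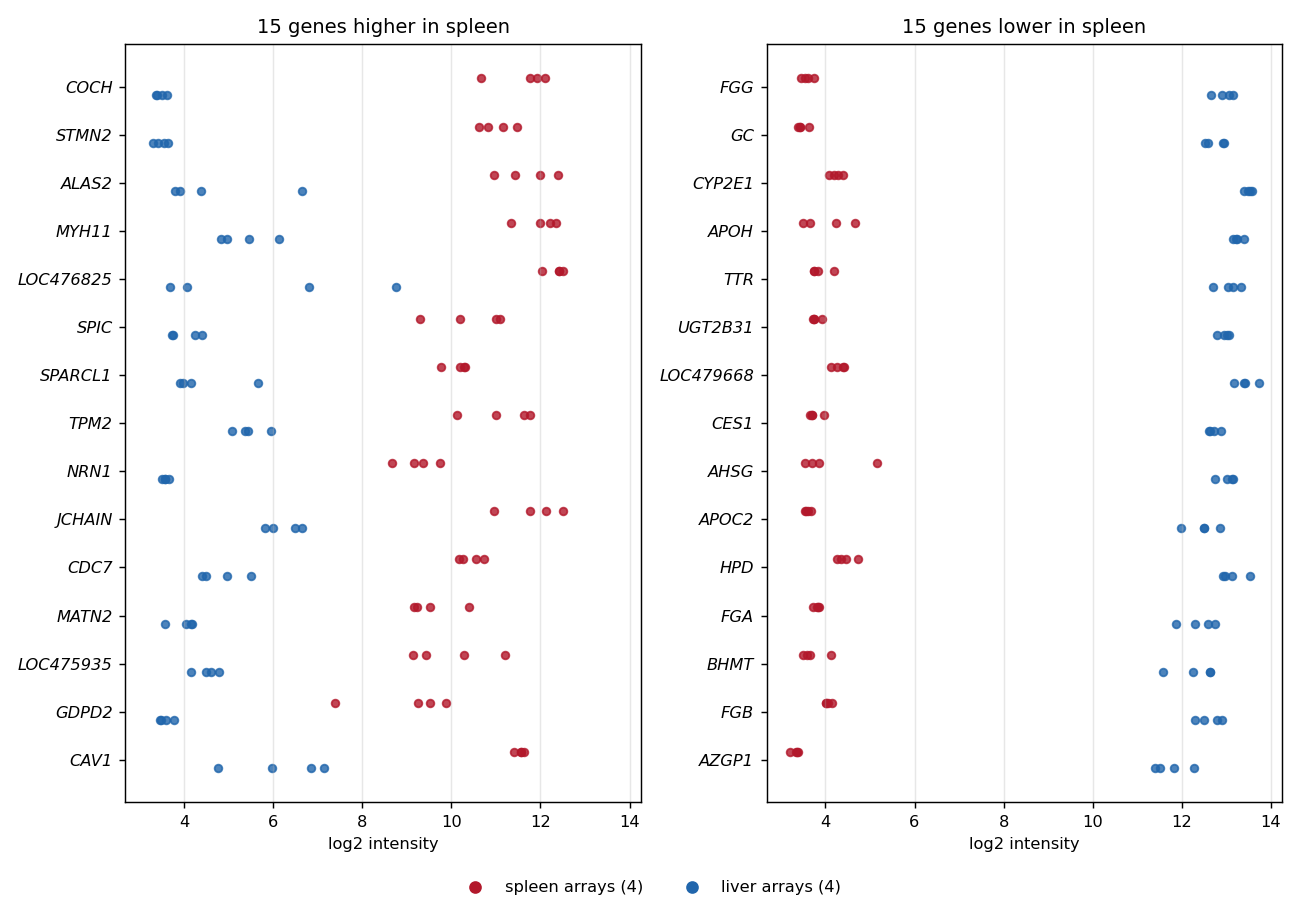
Log2 intensity of the 15 genes with the largest differences higher in spleen (left panel) and the 15 lower in spleen (right panel), with a point for each of the 4 spleen arrays (upper of each pair) and the 4 liver arrays (lower of each pair). COCH separates the organs by 8.15 and FGG by -9.35. The genes were chosen among called genes whose groups do not overlap.

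The remaining genes of the 15 are known mostly from contractile cells, vessels, neurons and plasma cells. MYH11, the myosin of smooth muscle, differed by 6.63 ± 0.69 and TPM2, a tropomyosin of muscle, by 5.68 ± 0.43. CAV1, the coat protein of caveolae, which abound in endothelium and muscle, measured 11.56, 11.57, 11.63 and 11.40 in spleen, against 6.84, 7.14, 5.98 and 4.76 in liver, and its livers spread widely while its spleens did not. JCHAIN, which joins the subunits of secreted IgA and IgM in plasma cells, measured 12.11, 10.96, 11.77 and 12.50 in spleen, against 6.64, 6.0, 6.49 and 5.81 in liver. SPARCL1, a matrix protein of vessel walls, measured 10.29, 9.77, 10.31 and 10.18 in spleen, against 5.66, 3.91, 3.96 and 4.15 in liver, with liver 1 above the other livers. MATN2, a filament-forming matrix protein, differed by 5.59 ± 0.52, NRN1, a membrane-anchored protein known from neurite growth, by 5.66 ± 0.19, and CDC7, a kinase that fires replication origins, by 5.59 ± 0.35. The arrays of both organs lay far apart for each of them, while GDPD2, a membrane phosphodiesterase, was as far apart (5.43 ± 0.26) although spleen 4, at 7.38, was well below the other spleens at 9.24 to 9.88. LOC475935, without a gene name here, completed the 15 with a difference of 5.51 ± 0.41, and lymph node was its brightest organ.

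Contractile genes, which in spleen serve the capsule and trabeculae, were called higher in 13 of the 22 measured cases of a smooth muscle list and lower in 0, and the median difference was 2.15, against 0.02 over all genes. Over all genes 8.18% were called higher and 7.18% lower, the shares beside which the list counts here and below stand. ACTG2, the enteric form of smooth muscle actin, measured 10.75, 9.25, 11.02 and 10.47 in spleen, against 5.87, 5.40, 5.04 and 5.53 in liver. MYL9, a light chain of smooth muscle myosin, measured 11.20, 10.69, 11.57 and 12.20 in spleen, against 7.35, 5.67, 6.32 and 6.99 in liver. The actin-binding proteins FLNA (4.17 ± 0.47), TAGLN (3.89 ± 0.46) and CNN1 (3.73 ± 0.51) and the actin ACTA2 (3.23 ± 0.70) were called in the same direction. For CNN1 spleen 2 measured 5.62, against 8.04 to 8.15 in the other spleens, and spleen 2 was also the lowest spleen for the mean of the whole list (7.57, against 8.14 to 8.67 in the others and 5.62 to 6.04 in the livers). CALD1, which binds actin and calmodulin in smooth muscle and in many other cells, had close levels of 11.80, 11.43, 12.23 and 11.75 in spleen, against 11.44, 11.60, 11.58 and 11.55 in liver by its brightest probeset and was not called by it, while 1 of its 3 other probesets was called higher (6.46 in spleen and 3.60 in liver, limma adjusted p = 1.91e-07). ACTA2 was called in none of the 8 fits that each left out 1 of the 8 arrays (limma adjusted p 0.00102 to 0.00459, differences 2.86 to 3.41).

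Stroma and patterning genes of the spleen were called in 8 of 19 measured cases as higher and in 1 as lower, with a median difference of 0.82. TCF21, a transcription factor of spleen mesenchyme, measured 7.24, 8.78, 6.54 and 7.55 in spleen, against 3.67, 3.35, 3.45 and 3.59 in liver. VCAM1, the adhesion molecule of stroma and macrophages, measured 12.08, 11.81, 12.55 and 11.98 in spleen, against 8.34, 9.37, 8.19 and 7.82 in liver. Both separated the organs fully. TLX1, without which mice form no spleen, was dim, with 3.98, 4.22, 4.57 and 4.39 in spleen, against 3.48, 3.43, 3.69 and 3.27 in liver, yet every spleen lay above every liver and the gene was called (0.82 ± 0.16, limma adjusted p = 0.000211). The call was lost without spleen 3, spleen 4 or liver 4 (limma adjusted p 0.00118 to 0.00176). CLU, clusterin, a secreted chaperone made in quantity by the liver, was the member called lower (-3.42 ± 0.63). The chemokine CXCL13, which draws B cells into follicles, was 8.26, 7.80, 5.87 and 6.29 in spleen, against 3.96, 4.10, 4.05 and 3.98 in liver, with spleens 1 and 2 above spleens 3 and 4.

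Each list of lymphocyte genes had members called higher in spleen. By the probeset that stood for each gene, none of their measured members was called lower. Other probesets can go the other way: FCRLA had 2 probesets called higher and 1 called lower. The latter averaged 3.69 in spleen and 6.57 in liver (limma adjusted p = 3.07e-13). For B lymphocytes 11 of 24 measured genes were called, for T lymphocytes 11 of 34, for cytotoxic and natural killer cells 6 of 18 and for plasma cells 4 of 13, with median differences of 0.73, 0.39, 0.79 and 0.25. These counts are 45.8%, 32.4%, 33.3% and 30.8% of the lists, against 8.18% of all genes called higher. Many of the remaining members lay near the level of dim probesets in both organs, with means under 5 for 11, 24, 8 and 6 genes of these lists. After the housekeeping shift by mean-centred values, the medians of the T lymphocyte and plasma cell lists turned to -0.13 and -0.27, and 1 B lymphocyte gene and 2 plasma cell genes were called lower. MS4A1, the B cell antigen CD20, measured 9.77, 8.76, 4.93 and 7.06 in spleen, against 3.72, 3.77, 3.82 and 3.80 in liver. CD3E, which carries the signal of the T cell receptor, measured 8.16, 8.24, 4.38 and 8.09 in spleen, against 3.40, 3.24, 3.40 and 3.74 in liver. KLRD1, the natural killer receptor chain CD94, measured 9.18, 9.0, 5.78 and 9.94 in spleen, against 3.52, 3.41, 3.67 and 3.60 in liver. In all 3 genes the livers lay at the floor, and spleen 3 was the lowest spleen by a wide margin, though above every liver.

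Spleen 3 was also the lowest spleen for the mean over the whole list of T lymphocyte genes (4.58, against 5.19 to 5.22 in the other spleens and 3.84 to 4.05 in the livers) and of cytotoxic genes (4.53, against 5.08 to 5.40 and 3.88 to 4.18). For B lymphocyte genes spleens 3 and 4 (4.95 and 5.02) lay below spleens 1 and 2 (5.89 and 5.76), and the livers measured 3.94 to 4.09. CD3D, a partner of CD3E in that receptor, differed by 4.67 ± 0.37, LCK, the kinase that starts T cell receptor signalling, by 3.31 ± 0.42, BTK, the kinase of B cell receptor signalling, by 3.81 ± 0.36, and BLNK, its adaptor, by 3.76 ± 0.20. Calls in these lists rested partly on single arrays: 8 fits, each without 1 of the 8 arrays, called 7 to 11 T lymphocyte genes and 3 to 6 cytotoxic genes, and the fits that left out spleen 1, spleen 2 or liver 2 called 3 cytotoxic genes. The 7 T lymphocyte genes were those of the fits without spleen 4, liver 1 or liver 2. LTB, which lymphocytes display to organise lymphoid stroma, measured 9.13, 8.95, 6.74 and 7.04 in spleen, against 3.82, 3.68, 3.99 and 3.91 in liver, again with spleens 1 and 2 on top. Its receptor LTBR was the only member of the list of lymphoid organisers called lower (-1.09 ± 0.25), and it was called in none of the 8 fits without an array (-1.19 to -0.95, limma adjusted p 0.00109 to 0.00781). Of the 26 measured genes of that list 7 were called higher.

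Antigen presentation genes were called higher in 12 of 22 measured cases and lower in 0, with a median difference of 1.92. CD86, a co-stimulator of T cells, measured 10.38, 9.96, 10.42 and 9.45 in spleen, against 7.41, 6.20, 6.33 and 7.30 in liver. The class II chains and loading factors DLA-DQA1 (2.71 ± 0.57), DLA-DQB1 (2.52 ± 0.47), DLA-DMA (2.37 ± 0.42) and DLA-DMB (3.06 ± 0.45) were all called. DLA-DQA1 lost the call without spleen 1, 2 or 4 or liver 3 or 4 (limma adjusted p 0.00141 to 0.00233). The other DLA-DQA1 probeset was also called higher in the full fit (3.52, limma adjusted p = 3.51e-06). DLA-DRA, the chain of another class II molecule, was also bright in liver: its arrays measured 12.70, 12.69, 12.63 and 12.57 in spleen, against 11.06, 10.49, 10.27 and 10.88 in liver, and with a difference of 1.97 ± 0.55 the gene was not called (limma adjusted p = 0.00724). All 4 spleens nonetheless lay above all 4 livers for DLA-DRA.

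Genes of red cell precursors were called higher in 9 of 24 measured cases and lower in 0, with a median difference of 0.55. HEMGN, a nuclear protein of erythroid progenitors, measured 6.41, 5.33, 8.24 and 6.50 in spleen, against 3.47, 3.47, 3.39 and 3.50 in liver. BPGM, which makes the red cell metabolite that loosens oxygen from haemoglobin, measured 7.13, 6.62, 6.84 and 9.17 in spleen, against 4.09, 4.28, 4.09 and 4.12 in liver, and EPB41, a protein of the red cell membrane skeleton, differed by 3.22 ± 0.44. Each had all spleens above all livers, with spleen 3 highest for HEMGN and spleen 4 highest for BPGM. KLF1, the master factor of red cell genes, was dim, with 3.73, 3.80, 4.53 and 4.45 in spleen, against 3.76, 3.58, 3.73 and 3.65 in liver, and was not called. Of platelet and megakaryocyte genes 9 of 17 were called higher and 0 lower. RGS18, a brake on G protein signalling in platelets, measured 8.34, 7.82, 7.31 and 8.67 in spleen, against 4.19, 3.97, 4.02 and 3.50 in liver. P2RY12, the ADP receptor of platelets, and ITGA2B, the alpha chain of their fibrinogen receptor, differed by 2.82 ± 0.45 and 2.25 ± 0.28, with dim livers throughout.

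Neutrophil genes were called higher in 5 of 16 cases and lower in 1, with a median difference of 0.30 that turned to -0.21 after the housekeeping shift by mean-centred values. S100A8 and S100A9, the calgranulins that neutrophils and monocytes hold in bulk, differed by 3.70 ± 0.52 and 3.52 ± 0.33. CAMP, a cathelicidin of neutrophil granules, measured 6.44, 8.29, 9.11 and 6.97 in spleen, against 5.56, 5.58, 5.83 and 5.20 in liver, with spleen 3 the brightest. ANPEP, an aminopeptidase that also sits on bile canaliculi, was the member called lower (-2.03 ± 0.28). Of 10 genes of mast cells and eosinophils 1 was called higher and 0 lower, a share of 10.0% higher against 8.18% of all genes. Cell division genes were called higher in 5 of 24 cases and lower in 0, and without spleen 3 the count was 9. MCM6 and MCM4, subunits of the replicative helicase, differed by 3.17 ± 0.52 and 2.75 ± 0.40. Spleen 2 had the highest mean over the cell division list (6.37, against 5.07 to 5.59 in the other spleens and 4.35 to 4.73 in the livers).

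**Figure D2:**
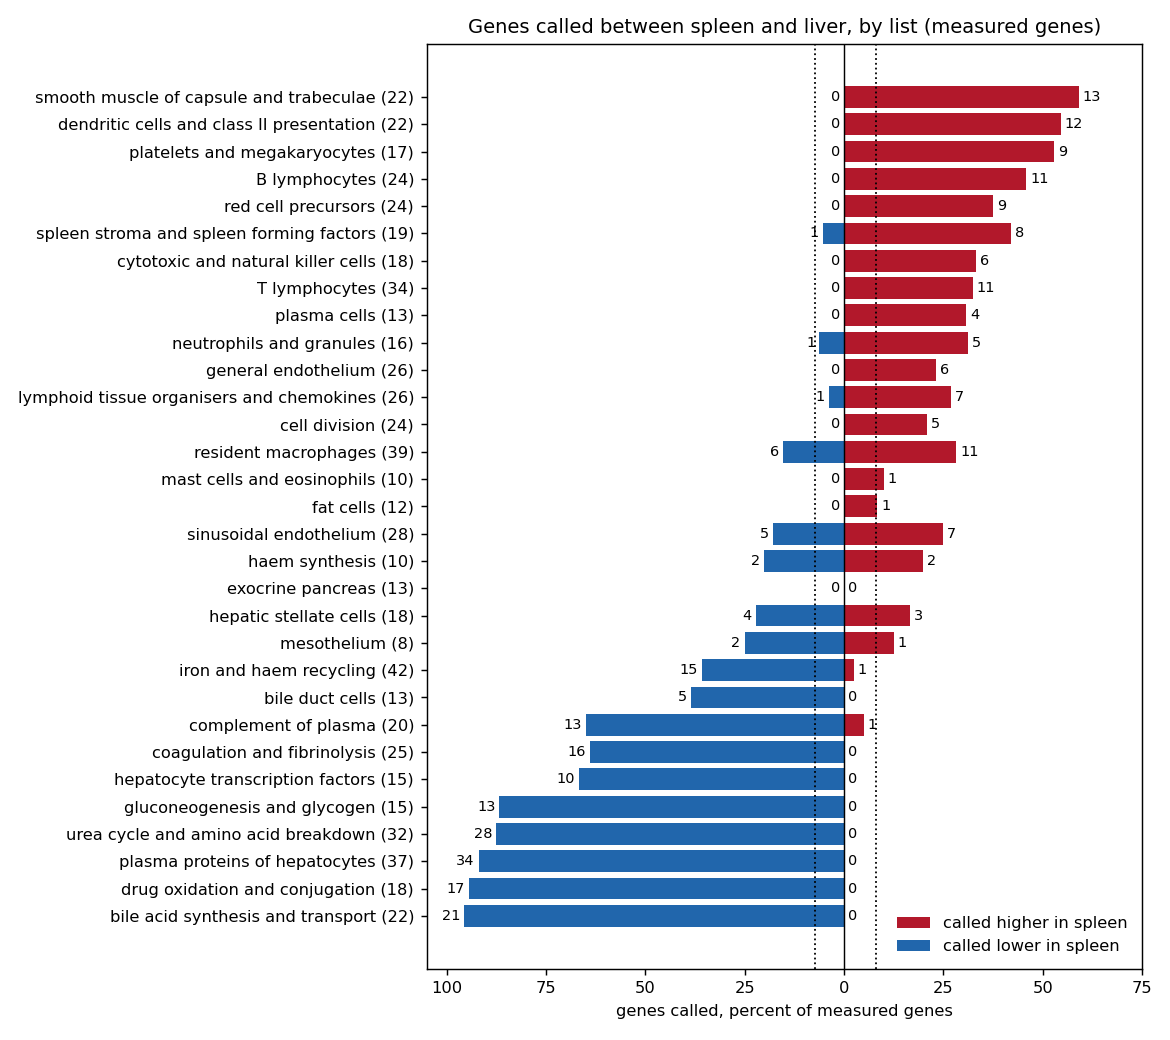
Share of measured genes called higher in spleen (bars to the right) and lower in spleen (bars to the left) in each list, in percent of the list, with the counts at the bar ends. Dotted lines mark the shares over all 15115 genes, 8.18% higher and 7.18% lower.

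The list counts moved with the samples fitted, with the scaling and with a filter on dim probesets. With the 8 spleen and liver arrays alone, limma called 4 B lymphocyte genes, 2 T lymphocyte, 2 plasma cell and 0 cytotoxic genes higher, although 10 cytotoxic genes were higher at an unadjusted p under 0.05. In that fit it called 7 smooth muscle genes higher, 8 of antigen presentation, 4 of spleen stroma, 2 of lymphoid organisers, 2 of red cell precursors, 4 of platelets, 1 of neutrophils and 0 of cell division, of which 17 passed the unadjusted threshold. Fewer genes were thus called in every list of blood, lymphoid and contractile cells. The housekeeping shift by mean-centred values left 1 cytotoxic gene, 7 T lymphocyte, 8 smooth muscle, 7 antigen presentation, 4 red cell precursor and 4 platelet genes called higher, and the shift by levels 8, 16, 14, 15, 11 and 11. With dim probesets removed, and so fewer genes tested, the same lists had 0, 3, 10, 8, 4 and 2 genes called higher, and B lymphocytes 3. The order of the lists by the share called also changed. Antigen presentation stood above smooth muscle with the 8 arrays alone, with unmoderated variance and after the shift by levels. It also did so without spleen 3, spleen 4 or any 1 of the livers, but not without spleen 1 or spleen 2.

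On the liver side the differences were larger. With 1 probeset per gene, and among called genes without overlap, the 15 with the largest differences lay between -8.43 and -9.35. Of these genes 14 have a gene name. FGG, FGA and FGB, the 3 chains of fibrinogen, were among them with -9.35 ± 0.51, -8.57 ± 0.25 and -8.56 ± 0.94. FGG measured 3.55, 3.74, 3.61 and 3.46 in spleen, against 13.14, 12.90, 13.06 and 12.66 in liver. The spleens lay at the floor and the livers near the top of the scale, a 655-fold difference. Other plasma proteins were GC, the vitamin D carrier (-9.29 ± 0.59), APOH, which binds phospholipids in plasma (-9.24 ± 0.88), TTR, the thyroxine and retinol carrier (-9.18 ± 0.89), AHSG, the mineral-binding fetuin A (-8.95 ± 0.90), APOC2, the cofactor of lipoprotein lipase (-8.86 ± 0.27), and AZGP1, a lipid-mobilising glycoprotein (-8.43 ± 0.22). CYP2E1, a cytochrome that oxidises ethanol and small solvents, measured 4.28, 4.40, 4.19 and 4.09 in spleen, against 13.58, 13.49, 13.53 and 13.41 in liver, the tightest liver group among these genes. UGT2B31 and CES1, which conjugate and hydrolyse drugs, differed by -9.17 ± 0.39 and -8.96 ± 0.85. HPD, of tyrosine breakdown, and BHMT, which remethylates homocysteine, differed by -8.68 ± 0.41 and -8.56 ± 0.37, and LOC479668, without a gene name here, by -9.14 ± 0.87. Probesets that did not stand for a gene could differ by more: a probeset of HPX differed by -9.52. The largest difference over all probesets was -10.

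By function, most measured hepatocyte genes were called. Of 37 measured plasma protein genes 34 were called lower in spleen and 0 higher, with a median difference of -6.58, and the mean over the list ran from 4.55 to 4.63 in the spleens and from 10.41 to 10.74 in the livers. Of 18 drug oxidation and conjugation genes 17 were called lower, of 22 bile acid genes 21, of 32 genes of the urea cycle and amino acid breakdown 28, of 15 gluconeogenesis and glycogen genes 13 and of 25 coagulation genes 16, each with 0 called higher. The bile salt importer SLC10A1 measured 3.63, 3.89, 3.81 and 3.56 in spleen, against 11.07, 11.50, 11.41 and 11.36 in liver. CPS1, the entry enzyme of the urea cycle, measured 3.63, 3.59, 3.81 and 3.44 in spleen, against 10.98, 10.77, 10.55 and 10.56 in liver. PCK1, the rate-limiting enzyme of gluconeogenesis, measured 6.4, 3.29, 3.23 and 3.17 in spleen, against 11.27, 11.83, 12.14 and 11.30 in liver, where spleen 1 stood above the other spleens. Some livers differed widely among themselves: CYP7A1, the rate-limiting enzyme of bile acid synthesis, measured 3.38, 3.27, 3.38 and 3.22 in spleen, against 9.45, 10.21, 6.41 and 4.27 in liver, so that liver 4 came close to the spleens, and NNMT, a methyltransferase of nicotinamide, measured 4.01, 3.89, 4.12 and 4.04 in spleen, against 10.07, 6.34, 4.42 and 4.77 in liver and was not called. ARG1, the arginase of the urea cycle, was not called by its brightest probeset (7.08, 7.0, 7.02 and 6.30 in spleen, against 7.67, 7.0, 7.51 and 6.85 in liver), whereas the pair of its probesets that are bright in liver differed by -7.69 and -7.17.

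F13A1, F8 and VWF, clotting factors known from cells other than hepatocytes, were not called by their brightest probesets. F13A1, the transglutaminase subunit made by platelets and macrophages, measured 5.02, 6.37, 5.06 and 5.44 in spleen, against 3.49, 3.36, 3.33 and 3.12 in liver, with all spleens above all livers, and it was not called (2.15 ± 0.56, limma adjusted p = 0.00356). The dimmer F13A1 probeset was called higher (0.68, limma adjusted p = 5.93e-05). F8 and VWF, clotting factors of endothelium, of which F8 was dim in both organs, differed by 0.17 ± 0.09 and 0.18 ± 0.51 and were not called. Of 20 measured complement genes 13 were called lower and 1 higher, with a median difference of -3.70. C9, which forms the membrane pore, measured 3.48, 3.42, 4.11 and 3.55 in spleen, against 11.19, 10.33, 10.43 and 9.68 in liver. C3, the central component, was bright in both organs by its brightest probeset and called lower in spleen. This probeset measured 8.45, 9.65, 9.34 and 10.90 in spleen, against 13.71, 13.71, 13.58 and 13.98 in liver, and its spleens varied more than its livers did. Without spleen 1, spleen 3 or liver 4 this probeset was not called (limma adjusted p 0.00105 to 0.00214). All 6 C3 probesets were called lower in the full fit. The others had means of 4.03 to 8.09 in spleen and 9.53 to 13.04 in liver (limma adjusted p 8.77e-14 to 1.93e-06). C7, which joins the pore complex, was the member called higher, with 6.50, 8.42, 4.48 and 8.58 in spleen, against 3.72, 3.29, 3.59 and 3.71 in liver, and spleen 3 was the one spleen close to the livers. Without spleen 3 or liver 4, 2 complement genes were called higher. Hepatocyte transcription factors were called lower in 10 of 15 cases (4 with the 8 arrays alone), with a median difference of -1.42. NR1I3, the drug-sensing receptor CAR, differed by -4.23 ± 0.18 and FOXA2, a pioneer factor of liver genes, by -2.94 ± 0.26. The brightest probeset of HNF4A was dim in both organs, with 3.95, 4.07, 4.55 and 4.25 in spleen, against 4.44, 4.65, 4.36 and 4.38 in liver, and was not called. The other HNF4A probeset, with means of 3.56 in spleen and 4.29 in liver, was not called either (-0.73, limma adjusted p = 0.00209).

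Bile duct genes were called lower in 5 of 13 cases and higher in 0, with a median difference of -0.37 that turned to 0.40 after the housekeeping shift by levels. The calls were led by KRT8 (-4.66 ± 0.30), KRT18 (-4.55 ± 0.41) and EPCAM (-3.98 ± 0.21), of which hepatocytes also make the keratins. KRT7, a keratin of duct cells, was dim in both organs and not called, and 6 of the 13 genes had means under 5 in both. Stellate cell genes were called in both directions, 4 of 18 lower and 3 higher, with a median difference of -0.19 that turned to 0.58 after the same shift. With the 8 arrays alone limma called 2 lower and 0 higher, with 7 higher at an unadjusted p under 0.05. RELN, the matrix protein reelin, which stellate cells secrete, measured 4.08, 4.33, 4.63 and 4.78 in spleen, against 9.71, 9.87, 9.55 and 9.38 in liver, and the soluble lectins COLEC11 and COLEC10 differed by -3.26 ± 0.17 and -2.06 ± 0.16. PDGFRA, a growth factor receptor of fibroblasts, measured 6.95, 5.31, 4.33 and 7.11 in spleen, against 3.61, 3.63, 3.48 and 3.43 in liver, with spleens 1 and 4 highest.

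Resident macrophage genes divided into a spleen side, a liver side and a large common group. Of 39 measured genes 11 were called higher in spleen, 6 lower and 22 not called, with a median difference of 0.91, and with the 8 arrays alone 4 were called higher and 3 lower. The mean over the list was 7.61 to 7.91 in the spleens and 6.76 to 7.36 in the livers. Besides SPIC and VCAM1, the spleen side held CD68, a lysosomal glycoprotein of macrophages, with 9.90, 8.62, 9.27 and 8.13 in spleen, against 7.96, 6.06, 5.86 and 6.20 in liver. It held CSF1R, the receptor for the growth factor that macrophages live on, with 9.34, 8.66, 6.89 and 9.17 in spleen, against 6.59, 6.11, 4.90 and 6.89 in liver, while its other probeset was not called (1.21). FCGR1A, the high-affinity Fc receptor, measured 6.83, 5.30, 7.57 and 7.10 in spleen, against 3.79, 4.05, 3.96 and 3.77 in liver. The groups did not overlap for CD68 and FCGR1A, nor for TREM2, a lipid-sensing receptor (2.36 ± 0.20), TYROBP, its signalling adaptor (2.11 ± 0.32), and SIGLEC1, a sialic acid receptor of marginal and metallophilic macrophages (1.87 ± 0.37). For CSF1R the lowest spleen, spleen 3, and the highest liver were equal to 2 decimals. SIGLEC1 lost the call without spleen 1 or spleen 2 (1.76 and 1.65, limma adjusted p 0.00108 and 0.00157).

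On the liver side of the macrophage list stood CLEC4F, a lectin that marks Kupffer cells in mice, with 3.68, 3.85, 3.83 and 3.67 in spleen, against 7.52, 6.15, 6.18 and 8.06 in liver. MRC1, the mannose receptor shared by macrophages and liver sinusoidal endothelium, measured 4.61, 5.02, 5.51 and 6.61 in spleen, against 9.06, 9.33, 8.99 and 8.44 in liver. CD14, the co-receptor for lipopolysaccharide, measured 6.50, 5.96, 6.08 and 6.85 in spleen, against 8.63, 8.72, 8.22 and 8.87 in liver. In each the 4 livers lay above the 4 spleens, by the widest gap for CLEC4F. APOE, the lipoprotein ligand that hepatocytes also secrete, differed by -3.82 ± 0.49, and ADGRE1, the canine counterpart of the mouse macrophage antigen F4/80, by -0.97 ± 0.19. For ADGRE1 spleen 1 lay inside the range of the livers, and the call was lost without spleen 2, liver 1 or liver 4 (limma adjusted p 0.00103 to 0.00126). Members such as MARCO, CD163 and NR1H3 overlapped between the organs and belong to the shared probesets below.

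**Figure D3:**
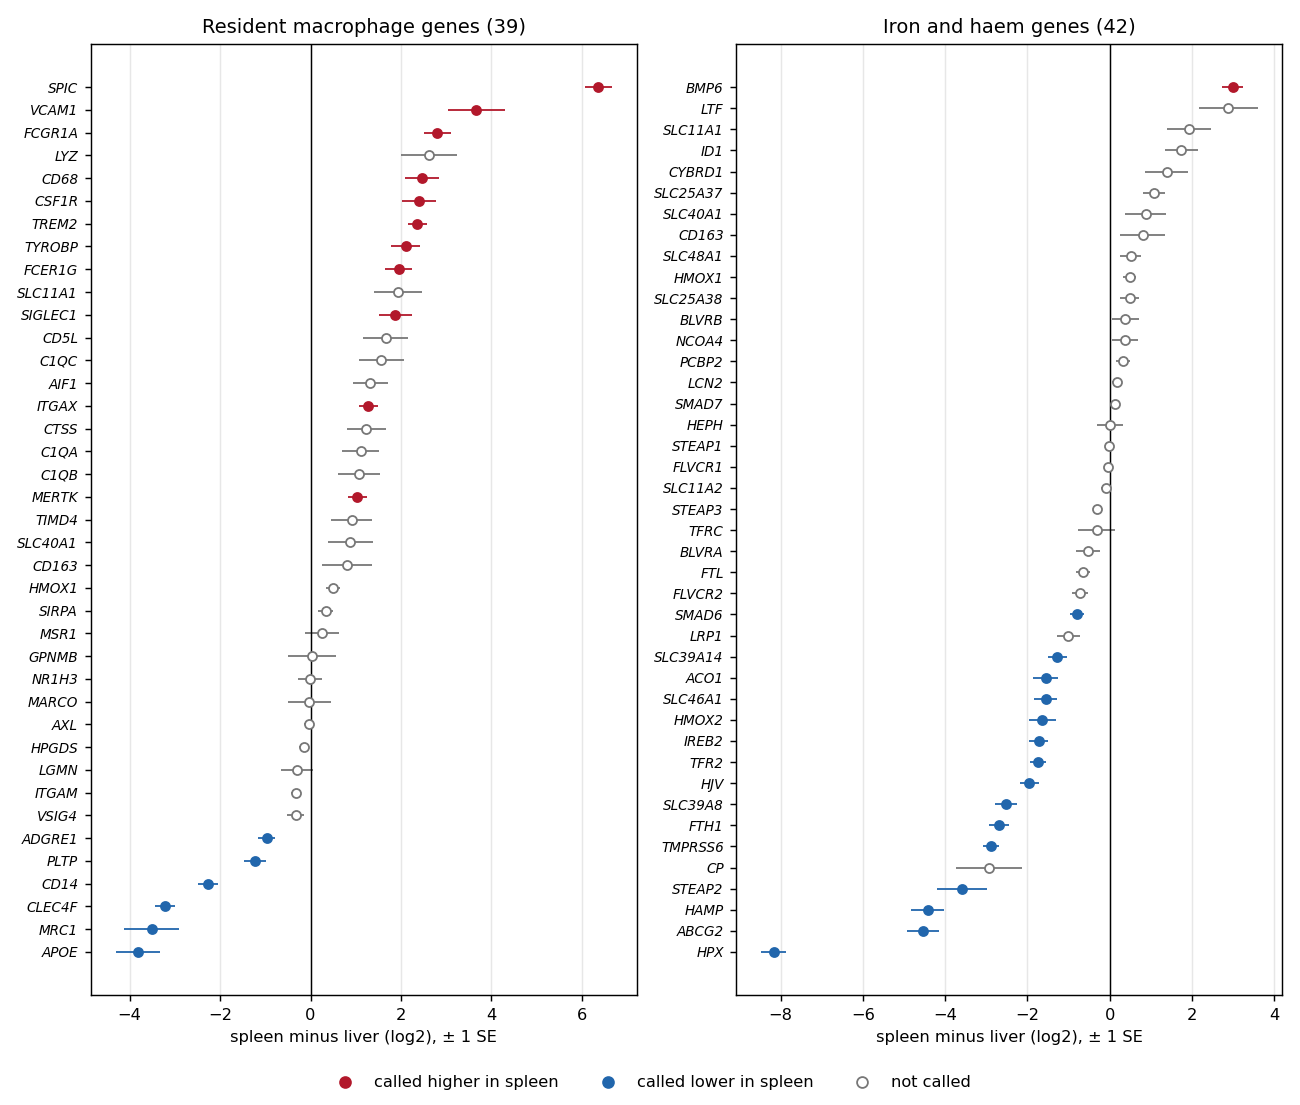
Difference between spleen and liver (log2, points, with bars of 1 SE from limma) of the 39 resident macrophage genes (left panel) and the 42 iron and haem genes (right panel), sorted by difference. Filled points are called at a false discovery rate of 0.001. SPIC (6.37) and BMP6 (3.0) lie at the spleen ends and APOE (-3.82) and HPX (-8.17) at the liver ends.

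Sinusoidal endothelial genes were called in both directions, 7 of 28 higher in spleen and 5 lower (4 and 3 with the 8 arrays alone), with a median difference of 0.15 that turned to -0.37 after the housekeeping shift by mean-centred values. LYVE1, a hyaluronan receptor known from lymphatic and liver sinusoidal endothelium, measured 7.19, 7.01, 3.80 and 6.70 in spleen, against 3.57, 4.64, 3.57 and 3.40 in liver, so that 3 spleens stood far above the livers and spleen 3 lay among them. Its call was lost without spleen 1, 2 or 4 or liver 4 (2.04 to 2.25, limma adjusted p 0.0011 to 0.0019). SELP, the adhesion receptor P-selectin of platelets and endothelium, measured 5.20, 5.32, 6.28 and 5.98 in spleen, against 3.54, 3.48, 3.57 and 3.49 in liver, with full separation. BMP6, the sinusoidal signal that raises hepcidin in hepatocytes, measured 6.32, 6.03, 7.17 and 7.67 in spleen, against 3.68, 3.96, 3.85 and 3.71 in liver, again with full separation, and NTN4, a laminin-like protein of vessel basement membranes, differed by 2.46 ± 0.21. On the liver side CD209, a pathogen-binding lectin, measured 5.53, 5.68, 6.12 and 6.68 in spleen, against 9.72, 9.62, 8.85 and 10.14 in liver. CLEC4G, a lectin of liver and lymph node sinusoids, and FCN2, a soluble lectin of the complement system, differed by -2.07 ± 0.32 and -3.54 ± 0.14. STAB1, the scavenger receptor stabilin 1, had overlapping levels of 5.31, 7.27, 6.51 and 7.59 in spleen, against 6.15, 5.97, 6.08 and 7.25 in liver and was not called.

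Among general endothelial genes 6 of 26 were called higher and 0 lower, with a median difference of 0.49 that turned to -0.03 after the housekeeping shift by mean-centred values. ICAM2, an adhesion molecule of endothelium and leukocytes, measured 8.54, 8.89, 8.38 and 8.95 in spleen, against 5.18, 4.76, 4.47 and 5.59 in liver. CLDN5, which seals endothelial junctions, measured 7.77, 8.59, 5.98 and 7.82 in spleen, against 4.26, 4.06, 3.83 and 4.48 in liver, and EMCN, a sialomucin of small vessels, differed by 2.39 ± 0.41. All 3 separated the organs fully. PECAM1, carried by nearly all endothelium, measured 9.05, 8.99, 9.16 and 8.69 in spleen, against 9.28, 9.19, 9.40 and 8.97 in liver, with close levels in both organs and no call.

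Iron and haem genes were called lower in spleen in 15 of 42 cases and higher in 1, BMP6, with a median difference of -0.31. The median turned to 0.46 after the housekeeping shift by levels, with 6 calls lower and 7 higher. Without spleen 1 or liver 1, 2 genes were called higher, and with the 8 arrays alone 6 were called lower. HPX, which carries free haem in plasma, measured 4.20, 4.40, 4.33 and 4.57 in spleen, against 12.55, 12.46, 12.60 and 12.59 in liver. HAMP, hepcidin, measured 5.88, 5.65, 5.75 and 5.84 in spleen, against 12.06, 8.01, 10.52 and 10.25 in liver, with a wide spread among the livers. The hepcidin regulators TMPRSS6, HJV and TFR2 differed by -2.89 ± 0.19, -1.95 ± 0.23 and -1.74 ± 0.19. All of these genes are known from hepatocytes, and each separated the organs fully by these probesets. Other probesets differed by more: -7.32 for HAMP, and -5.10 and -4.39 for HJV, all called lower. FTH1, the ferritin heavy chain, was also called lower (-2.69 ± 0.25), with 5.32, 5.56, 6.03 and 5.46 in spleen, against 7.91, 8.16, 8.71 and 8.35 in liver. FTL, the ferritin light chain, was bright in all 8 arrays, with 12.34, 12.19, 12.12 and 12.38 in spleen, against 12.73, 12.92, 12.94 and 13.02 in liver, and was not called although every liver lay above every spleen.

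Of SLC40A1, BLVRB, SLC11A1, HMOX1 and HMOX2, which handle iron or haem within cells, HMOX2 was called by its brightest probeset and SLC11A1 by 2 dimmer ones. SLC40A1, the iron exporter ferroportin, measured 11.14, 10.75, 10.31 and 11.53 in spleen, against 10.23, 9.59, 9.88 and 10.52 in liver and was not called (0.88 ± 0.50). BLVRB, a biliverdin reductase abundant in red cells, measured 10.49, 10.66, 11.05 and 11.51 in spleen, against 10.46, 10.49, 10.23 and 10.98 in liver and was not called (0.39 ± 0.32). SLC11A1, an iron and manganese pump of phagosomes, measured 9.67, 10.32, 10.57 and 9.54 in spleen, against 8.85, 7.46, 7.61 and 8.44 in liver, with all spleens above all livers, and by this probeset it missed the threshold (1.93, limma adjusted p = 0.00554). The 2 other SLC11A1 probesets were called higher (2.09 and 1.96, limma adjusted p = 1.12e-08 and 5.7e-06). HMOX1, the inducible haem oxygenase, was represented by a probeset that was dim in both organs, with 5.06, 4.11, 4.14 and 4.58 in spleen, against 3.94, 3.88, 3.97 and 4.14 in liver, and was not called. HMOX2, the constitutive haem oxygenase, was called lower in spleen (-1.64 ± 0.33), but not without spleen 3 or liver 4 (-1.47 and -1.45, limma adjusted p 0.00155 and 0.00185). Of 10 genes of haem synthesis 2 were called higher and 2 lower. The 2 isoforms of the opening enzyme were called in opposite directions: ALAS2 was higher in spleen, and ALAS1, its housekeeping counterpart, was lower (-2.37 ± 0.42), with 8.94, 8.79, 8.31 and 8.61 in spleen, against 11.69, 11.87, 10.79 and 9.76 in liver. FECH, which inserts the iron, was called higher (1.87 ± 0.36), with 7.98, 8.40, 9.95 and 9.29 in spleen, against 6.85, 7.10, 7.28 and 6.92 in liver. This probeset lost the call without spleen 3, its brightest array (1.52, limma adjusted p = 0.00132). All 5 FECH probesets were called higher in the full fit, the others with larger differences of 2.45 to 3.25 (limma adjusted p 1.31e-07 to 2.83e-06).

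The 86 shared probesets were selected because both organ means lay at least 2 log2 units above the mean of the 8 other organ means, so their height over the other organs is a description and was not tested. They made up 11.4% of the 752 probesets that reached this height in spleen and 6.1% of the 1405 that reached it in liver. Of the 86, 65 carry a gene symbol (50 different symbols, 6 of them unnamed loci) and 21 carry none. Their median level was 9.16 in spleen, 9.10 in liver and 5.78 over the other organs. Between spleen and liver 7 were called higher, 8 lower and 71 were not called, that is 8.1% and 9.3% against the 6.44% and 6.1% of all probesets. A difference of less than 1 was seen in 45, a count without a share over all probesets beside it. The rule asks for height in both organs, so that count is no measure of their likeness. The next highest organ was lymph node for 36 of them, lung for 25 and kidney for 12. In 18 probesets, which carry 9 different symbols or none, every spleen and every liver array lay above every array of the other 8 organs.

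**Figure D4:**
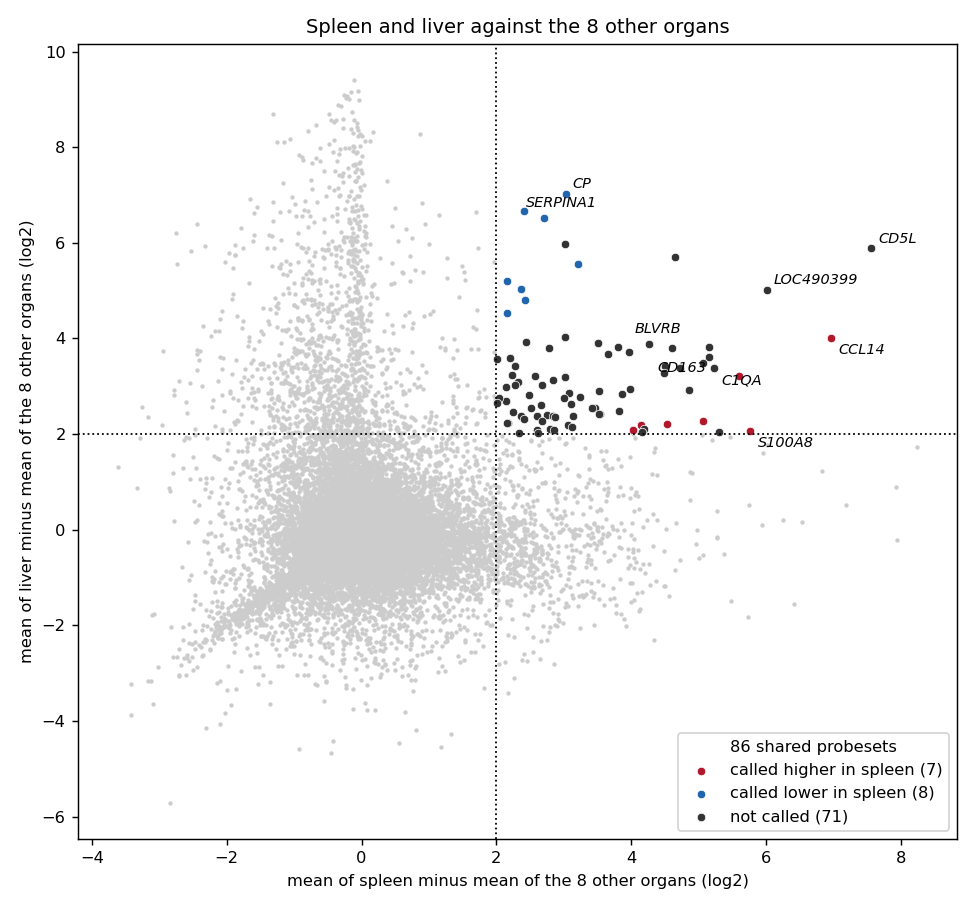
Mean of spleen minus the mean of the 8 other organs (x axis, log2) against the mean of liver minus the same (y axis, log2) for all 42860 probesets (grey). The 86 shared probesets, at 2 or more on both axes, are coloured by their call between spleen and liver: 7 higher in spleen, 8 lower in spleen and 71 not called.

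Macrophage genes were among the shared probesets with the largest differences from the other organs. CD5L, a scavenger protein that tissue macrophages secrete into plasma, measured 12.38, 12.42, 12.37 and 11.66 in spleen, against 11.13, 10.13, 10.09 and 10.84 in liver, and the mean of the other organs was 4.65. It was high in every spleen and every liver, and lymph node, at 10.59, was the only other organ near them. LOC490399, the unnamed neighbour of CD5L in the UU_Cfam_GSD_1.0 annotation, measured 9.92, 9.94, 9.74 and 9.26 in spleen, against 9.41, 8.47, 8.16 and 8.88 in liver, and the mean of the other organs was 3.71. For this locus all 8 arrays lay above every array of the other organs. The 3 chains of C1q, the starter of classical complement made by macrophages, were all in the set: C1QA, C1QB and C1QC measured 12.77, 11.33 and 12.17 in spleen, 10.93, 10.26 and 10.85 in liver, and 7.55, 6.83 and 7.02 over the other organs. By these probesets all spleens exceeded all livers in the 3 chains, but none of them was called. Lymph node, at 11.15, 10.31 and 11.05, lay between the spleen and liver means in each chain.

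CD163, the receptor through which macrophages take up haemoglobin bound to haptoglobin, measured 9.64, 8.95, 9.37 and 10.09 in spleen, against 9.26, 8.53, 8.21 and 8.84 in liver, with 4.91 over the other organs. The organs overlapped and every one of the 8 arrays lay above the brightest array of the other organs, at 7.87. All 3 of the CD163 probesets in the set showed overlapping organs. MARCO, a scavenger receptor for bacteria, measured 9.76, 9.65, 8.41 and 8.22 in spleen, against 9.44, 8.70, 8.34 and 9.68 in liver, and lymph node was higher still, at 10.20. NR1H3, the oxysterol receptor LXR alpha, which Kupffer cells and the marginal zone macrophages of the spleen need in mice, measured 8.68, 9.42, 9.13 and 9.33 in spleen, against 9.59, 8.27, 8.81 and 9.96 in liver. Its organ means of 9.14 and 9.16 differed by less than the spread within either organ. IL1R2, the decoy receptor for interleukin 1, measured 8.16, 7.65, 7.54 and 8.11 in spleen, against 8.27, 7.47, 7.21 and 7.5 in liver, and likewise overlapped. AIF1, a calcium-binding protein of macrophages, measured 10.41, 9.96, 9.81 and 10.03 in spleen, against 9.60, 8.38, 8.34 and 8.58 in liver, with all spleens above all livers, and it was not called.

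TIMD4, a receptor for dying cells on resident macrophages, and VSIG4, a complement receptor of Kupffer cells, were in the set with overlapping organs (differences 0.91 ± 0.46 and -0.06 ± 0.42). For VSIG4 the other probeset did not reach the set and was not called either (-0.33). CFP, the complement stabiliser properdin, and CTSS, a protease of class II loading, differed by 1.33 ± 0.34 and 2.13 ± 0.49 and were not called. CXCL16, a scavenger and chemokine of macrophages, was called higher (1.95 ± 0.35), as was S100A8 (3.70 ± 0.52), whose 4 livers were 6.28, 8.63, 8.26 and 8.46. S100A9, its partner, missed the set on the liver side, at 1.94 over the other organs. By organ means, lymph node exceeded liver for CFP (7.47 against 7.24), CTSS (10.53 against 9.44) and CXCL16 (8.22 against 7.68). Lung exceeded liver for S100A8 (10.21 against 7.91).

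**Figure D5:**
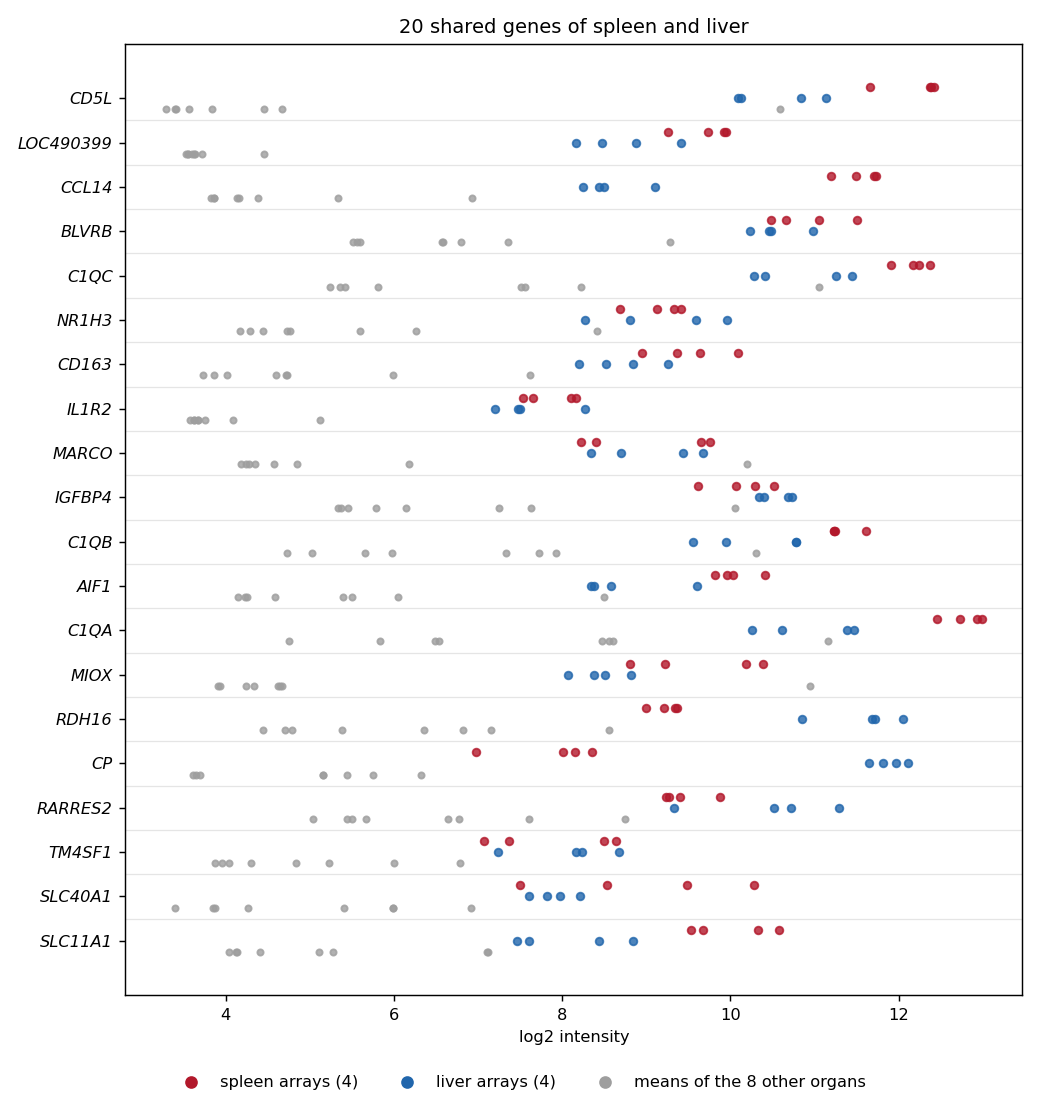
Log2 intensity of the 20 shared genes with the largest smaller difference from the 8 other organs, with the 4 spleen arrays, the 4 liver arrays and the 8 other organ means drawn in 3 rows for each gene. CD5L reaches 12.42 in spleen and 11.13 in liver, and its highest grey point is lymph node at 10.59.

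Iron handling was represented by SLC40A1, SLC11A1, BLVRB, BLVRA, HEBP1 and CP. Both SLC40A1 probesets in the set had every spleen and liver array above every array of the other organs. The dimmer of them spread widely in spleen, with 9.49, 8.54, 7.5 and 10.28 in spleen, against 7.83, 7.98, 7.60 and 8.21 in liver. The BLVRB probeset was 10.93 in spleen, 10.54 in liver and 6.66 over the other organs, and its remaining pair of probesets was dim in both organs, at 3.55 to 3.94. BLVRA, the other biliverdin reductase, and HEBP1, a haem-binding protein, differed by 0.10 ± 0.42 and 0.26 ± 0.35 with overlapping arrays. CP, ceruloplasmin, the copper oxidase that loads iron onto transferrin, was in the set by both of its probesets and was far lower in spleen: 8.01, 8.36, 6.97 and 8.16 in spleen, against 12.11, 11.82, 11.96 and 11.64 in liver, a 16.1-fold difference, called by this probeset only. Spleen 3 was the lowest spleen for it.

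Sinusoidal vessels were represented by CCL14, whose shared probeset measured 11.19, 11.73, 11.49 and 11.71 in spleen, against 8.5, 8.44, 8.25 and 9.10 in liver, with 4.56 over the other organs. The spleens lay above all the livers, and the difference was called (2.96 ± 0.45, 7.77-fold, limma adjusted p = 3.45e-06). Its brighter probeset over the 39 arrays, with a mean of 6.19 over the other organs, was called as well (2.65 ± 0.32). DNASE1L3, a nuclease that digests DNA from dying cells, was in the set by both probesets with overlapping organs, and lymph node exceeded spleen and liver in them. CD36, a fatty acid and scavenger receptor, IL33, an alarmin of endothelial nuclei, and TM4SF1, a membrane protein of endothelium, differed by -0.36 ± 0.77, -0.30 ± 0.55 and -0.18 ± 0.43, each with overlapping arrays and no call. CD36 was about as bright in heart (10.35) and lung (10.28) as in spleen (9.94) and liver (10.29). ICAM1, the leukocyte adhesion molecule, was at the edge of the set, 2.01 above the other organs in spleen. Its mean in lung (9.09) was above those in spleen (7.44) and liver (8.08).

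Some shared genes fell into none of these roles. MIOX, the oxygenase that opens the ring of myo-inositol and is known from kidney, measured 8.81, 9.22, 10.18 and 10.39 in spleen, against 8.07, 8.38, 8.52 and 8.81 in liver. Kidney, its brightest organ, averaged 10.94, and the mean of the 8 other organs was 5.17. MIOX lies next to ADM2 and LMF2 in the annotation used. RDH16, a retinol dehydrogenase of hepatocytes, measured 9.0, 9.21, 9.34 and 9.37 in spleen, against 11.72, 10.86, 12.05 and 11.68 in liver, with every spleen below every liver, and lies next to GPR182 there. It was called lower (-2.35 ± 0.51), and lost the call in 7 of the 8 fits without an array (limma adjusted p 0.00139 to 0.00332), whereas its other probeset, outside the set, was called with -3.63. IGFBP4, a binding protein of insulin-like growth factors, and RARRES2, the chemoattractant chemerin, differed by -0.41 ± 0.49 and -1.02 ± 0.46 and were not called. A dimmer IGFBP4 probeset outside the set was called lower (-1.14, limma adjusted p = 8.13e-07). Among those called lower in spleen were SERPINA1, the antiprotease of plasma (-3.80 ± 0.50), IGF1, the growth factor itself (-2.38 ± 0.53), and ABCB4, the phospholipid pump of bile (-4.25 ± 0.23). IGF1 lost the call without spleen 3 or 4 or liver 1 or 2 (-2.32 to -1.77, limma adjusted p 0.00314 to 0.00832). PDIA5, a folding enzyme of the endoplasmic reticulum, was in the set by 3 probesets, each above every array of the other organs and each with overlapping organs.

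The probesets just inside the limit were those of ICAM1 and VNN1, a pantetheinase, which lay 2.01 and 2.02 above the other organs in spleen, and CTSS and SCPEP1, a serine carboxypeptidase, at 2.04 and 2.02 in liver. Just outside lay another probeset of CD68 (1.997 in liver) and of RDH16 (1.97 in spleen) and the interferon-induced gene OAS1 (1.96 in spleen). With the limit at 3-fold the set held 152 probesets and at 8-fold it held 23.

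Genes of tissues that could have been carried along were mostly dim. Of 13 exocrine pancreas genes 0 were called in either direction, and 12 had means under 5 in both organs. CEL, an ester lipase, was the exception, with 5.29, 4.17, 5.07 and 6.61 in spleen, against 5.61, 4.60, 8.73 and 10.17 in liver, so that livers 3 and 4 were bright. Liver 4 also had the highest mean over this list (4.63, against 3.73 to 4.17 in the other livers and 3.68 to 4.07 in the spleens), and its part in the results was not tested. Of 12 fat cell genes 1 was called higher (2 without spleen 4), and this share of 8.3% was near the 8.18% of all genes. The called gene was PPARG, the lipid-sensing receptor that macrophages also carry, with 7.46, 6.93, 7.12 and 7.81 in spleen, against 4.80, 5.04, 5.61 and 4.97 in liver. Of the 12 genes 9 had means under 5 in both organs. Of 8 mesothelial genes WT1 was called higher (1.08 ± 0.16), and the keratins KRT8 and KRT18, which hepatocytes share, were called lower.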

How the data were processed

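Total RNA from whole pieces of 10 organs of 4 dogs was hybridised to Affymetrix Canine Version 2.0 arrays. The authors deposited log2 values of 39 arrays, made in Partek 6.4 by robust multichip averaging (RMA) with adjustment for GC content and probe sequence and quantile normalisation over the 39 arrays. This gives all arrays a like distribution, so a global difference in RNA between organs cannot be seen. The log2 scale was read from the values (2.61 to 14.74). The number of arrays, 4 of spleen and 4 of liver, limits the precision. A pancreas sample was excluded by the authors as an outlier, so that organ had fewer arrays than the others.

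A mean per organ was fitted over all 39 arrays, in limma 3.58.1 (R 4.3.3) with moderated variance, without the random scan date term of the methods' ANOVA (scan dates were not used here, and their part was not tested), and spleen minus liver was adjusted by Benjamini-Hochberg over 42860 probesets. Tested on simulated data, it recovered 70.1% of 67 probesets changed by 2-fold, 85.1% of 67 by 4-fold and 100% of 66 by 16-fold, with 1 false call of 42660. Those 42660 probesets were equal in spleen and liver, and the noise was independent, with 1 SD per probeset for all organs. Far fewer probesets differed there than the 12.5% called in the data, so these rates need not hold for the comparison itself.

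By the platform annotation 29254 probesets had 1 symbol, 439 several and 13167 none, and 27680 matched the RefSeq table of UU_Cfam_GSD_1.0 by gene number, which served for neighbours only. The probeset with the highest mean over the 39 arrays stood for a gene, and the probeset in the set for a shared gene. Named were the 15 largest called differences without overlap in each direction, the 20 shared genes with the largest smaller difference from the other organs, the 3 largest and 3 smallest differences of each list, other members that the account of a function needed, and CCL14, COCH and VTN. Other shared genes, those next to the limit of the set, and FCRLA were named after their values had been seen. The counts of named genes below leave FCRLA out. Among the genes of the lists, of the shared set and of the largest differences, 388 had more than 1 probeset. Of these, 2 had probesets called in opposite directions. The members and the 32 lists were chosen with earlier results of these data known. Alternatives were a replicate block, the 8 arrays alone, other variance models, array weights, rescalings, a filter on dim probesets, another threshold, other limits of the shared set, another probeset per gene, and leaving out each array.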

Additional observations from a re-analysis of the deposited data

Results flagged for a closer look

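In each named gene the 4 spleen and the 4 liver arrays were searched for a single array far from the other 3 (its gap to the nearest, over the range, above Dixon's 95% limit). Of 344 groups 25 (7.3%) had such an array, where chance gives about 1 in 20. No cause was tested.

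Spleen 3 was the array set apart most often. It was lowest for CD3E (4.38, the other spleens 8.09 to 8.24), LYVE1 (3.80, others 6.70 to 7.19), DLA-DQB1 (9.89, others 11.06 to 11.26) and CTSS (10.98, others 11.72 to 11.82), and highest for S100A9 (11.19, others 10.23 to 10.26), NR1I3 (4.10, others 3.46 to 3.52) and CLEC4G (4.12, others 3.82 to 3.84). Among these CD3E, LYVE1 and DLA-DQB1 are read in lymphocytes, vessels and antigen-presenting cells, and S100A9 in neutrophils and monocytes. Spleen 1 was highest for BTK (9.20, others 7.78 to 7.83), C1QB (11.61, others 11.23 to 11.24), PCK1 (6.4, others 3.17 to 3.29) and CES1 (3.97, others 3.65 to 3.70), and lowest for ICAM1 (7.12, others 7.54 to 7.55). Spleen 2 was lowest for CNN1 (5.62, others 8.04 to 8.15) and highest for EMCN (9.26, others 8.32 to 8.42) and UGT2B31 (3.92, others 3.73 to 3.75). Spleen 4 was lowest for CD5L (11.66, others 12.37 to 12.42) and ARG1 (6.30, others 7.0 to 7.08), and highest for TAGLN (12.41, others 11.73 to 11.75).

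Among the livers, liver 1 was highest for CD68 (7.96, others 5.86 to 6.20) and SPARCL1 (5.66, others 3.91 to 4.15) and lowest for S100A8 (6.28, others 8.26 to 8.63). Liver 2 was highest for LYVE1 (4.64, others 3.40 to 3.57) and BPGM (4.28, others 4.09 to 4.12), liver 3 for KRT7 (4.74, others 4.40 to 4.44) and liver 4 for STAB1 (7.25, others 5.97 to 6.15).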

How the results depend on the processing

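Of the 124 called genes named in the text, none turned direction under any alternative run, but 43 lost their call with the 8 arrays alone and 11 under each housekeeping shift, and 112 kept it in all 8 fits without 1 array; ACTA2, ADGRE1, C3, DLA-DQA1, FECH, HMOX2, IGF1, LTBR, LYVE1, RDH16, SIGLEC1 and TLX1 did not. Without 1 array in turn, 2248 to 3013 probesets were called higher in spleen (most without spleen 3), 2383 to 2478 lower, 1041 to 1329 at least 4-fold higher and 1518 to 1606 at least 4-fold lower, and the shared set held 82 to 97. With the 8 arrays alone, 1153 were called higher, 1416 lower and 684 at least 4-fold higher. Array weights gave 4415 higher, removal of dim probesets (fewer tested) 1794 higher, and a false discovery rate of 0.05 gave 5960 higher and 4456 lower. The housekeeping shift by levels gave 6265 higher, 1347 lower and 2749 at least 4-fold higher, and the shift by mean-centred values, chosen after seeing the data, 1268, 5929 and 706. A shift to equal array medians left 48.9% of 5266 calls higher. The shared set held 152 probesets at 3-fold, 23 at 8-fold, 145 against the median of the 8 other organs and 38 with every array 4-fold above their mean, and 99 without lymph node or 109 without lung among the others.

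With the replicate number as a block, 3059 were called higher and 2779 lower, of them 1178 and 1598 at least 4-fold. The labels tie no number to a dog, and the deviations of same-numbered spleen and liver arrays correlated at 0.05, 0.10, 0.34 and 0.11, the same-numbered spleen being the closest to livers 1, 3 and 4 and the same-numbered liver to spleens 2 and 3. Not every pair exceeded 0.1, so the numbers were not taken as a pairing, and whether they mark dogs is not known.

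The genes that changed sign were all uncalled in the fit as reported. After the housekeeping shift by levels these were ARG1 (0.36), CD36 (0.41), FTL (0.13), HNF4A (0.52), ICAM1 (0.13), IGFBP4 (0.36), IL33 (0.47), KRT7 (0.49), MARCO (0.74), NR1H3 (0.76), PDIA5 (0.74), PECAM1 (0.53), TM4SF1 (0.59) and VSIG4 (0.71). After the shift by mean-centred values they were BLVRA (-0.41), BLVRB (-0.13), CALD1 (-0.25), DNASE1L3 (-0.012), F8 (-0.35), HEBP1 (-0.26), HMOX1 (-0.025), IL1R2 (-0.26), KLF1 (-0.065), SCPEP1 (-0.20), STAB1 (-0.21) and VWF (-0.33). With array weights they were BLVRA (-0.096), MARCO (0.19) and VSIG4 (0.014), and by its probeset brightest over the 8 arrays BLVRA (-0.52). Without 1 array in turn the ranges were -0.14 to 0.24 for BLVRA, -0.04 to 0.45 for HEBP1, -0.28 to 0.23 for MARCO, -0.31 to 0.25 for NR1H3, -0.088 to 0.069 for PDIA5, -0.46 to 0.092 for TM4SF1 and -0.74 to 0.40 for VSIG4.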
